A study of Homo sapiens with 12 samples.

Results

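The ironomycin response of MAVER1, a mantle cell lymphoma (MCL) B-cell line, was described from 4 RNA-seq libraries of the 12 in the series. The cells were treated for 48 h in 4 ways: control (Ctrl), 250 nM ironomycin (Irono), 6.25 μM ibrutinib (Ibru), and both drugs together (Irono+Ibru). The 2 libraries with ironomycin were compared with the 2 without it, and the 2 pairs were Irono against Ctrl and Irono+Ibru against Ibru. Each treatment gave 1 library, so the 2 pairs stand in for replicates of the ironomycin effect. The spread behind a p-value is the departure of the pairs from each other, moderated over all genes. A small p-value or standard error thus also rests on other genes and does not show how well that gene's own pairs agreed. Of 63677 Ensembl genes in the count table, 14348 held 20 or more reads in at least 2 of the 4 libraries and were tested. A gene was called when its adjusted p-value was under 0.05, its fitted log2 fold change was at least 1 in size and both pairs moved in that direction. As a check each MAVER1 library was left out in turn, in fits of 2 libraries against 1 without pairing or an ibrutinib term. Fold changes of MAVER1 given without a library therefore mix in the effect of ibrutinib. The other 8 libraries come from JEKO1, treated with 50 nM ironomycin and 0.5 μM ibrutinib, and JVM2, treated with 250 nM ironomycin and 1.5 μM ibrutinib, also for 48 h and in the same 4 ways, and they are used below only to show where MAVER1 differs.

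Ironomycin is a derivative of salinomycin that holds iron in lysosomes, and ibrutinib is a covalent inhibitor of Bruton's tyrosine kinase (BTK), which relays the signal of the B-cell receptor (BCR). The unfolded protein response (UPR) is set off when unfolded proteins gather in the endoplasmic reticulum (ER). Its sensors are IRE1α, encoded by *ERN1*, which splices *XBP1* mRNA, PERK, encoded by *EIF2AK3*, which phosphorylates eIF2α and thereby favours translation of ATF4, and ATF6, which is cleaved into a transcription factor. ATF4 and its target CHOP, encoded by *DDIT3*, drive genes of amino acid supply, redox balance and cell death, and ATF4 is also reached by other kinases of eIF2α.

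The 4 libraries held 38081238 to 38630809 counted reads. All 8 B-cell markers examined were expressed, with the lowest at 671 reads (*CD22*), and *CCND1*, the cyclin gene that the translocation of MCL activates, held 153861 to 182992 reads. Of 6 T-cell markers, 5 held at most 3 reads in any library, and *TRBC2*, a T-cell receptor constant segment, held 2084 to 6322 and was called lower with ironomycin (log2 fold change -1.22); the other T-cell markers stayed at or below 3 reads throughout. The 6 monocyte markers summed to 15 to 55 reads per library, with *FCGR3A* and *S100A8* at 0.

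In MAVER1, ironomycin raised 710 genes (4.95% of those tested) and lowered 326 (2.27%). Both log2 ratios were at least 1 in size and in the same direction for 407 genes that rose (2.84%) and 202 that fell (1.41%), and each of these genes was also called. At the adjusted p-value alone, 3352 genes were higher (23.4%) and 3314 lower (23.1%), so changes under the fold minimum were common in both directions, with a median log2 fold change over all tested genes of 0.01. Rises reached further than falls: 111 called genes were higher by at least 2 on the log2 scale and 47 lower, and 30 were higher by at least 3 and 11 lower. For 707 of the 710 rises both libraries with ironomycin lay above both without it, and for 322 of the 326 falls they lay below. The call already asks for both pairs to move that way and for a fold minimum. These counts were thus largely fixed in advance and add no support. Of the rises 189 held under 20 reads in both libraries without ironomycin, and of the falls 74 held under 20 in both with it; these genes passed the filter only through the group where they were high, so they had to differ, and their folds are imprecise.

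The ratios of the 2 pairs correlated at r = 0.83 across the 14348 genes, a description over genes that share the same 4 libraries, and 82.1% of genes had the same sign in both. A log2 ratio of at least 1 in size was reached by 882 genes without ibrutinib and by 1290 with it. The called rises were larger in the pair with ibrutinib for 549 of 710 genes, with medians of 1.16 without and 1.47 with ibrutinib. For the falls this was so for 182 of 326 genes, and the medians were -1.28 and -1.31. With 1 library per treatment, this difference between the pairs could not be tested. The ratio with against without ibrutinib was at least 1 in size for 141 genes without ironomycin and for 220 with it. Only 2 tested genes moved by at least 1 in opposite directions in the 2 pairs, *CLDN23* and *DUBR*, named after their values were seen and with 7 to 29 reads per library.

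**Figure D1:**
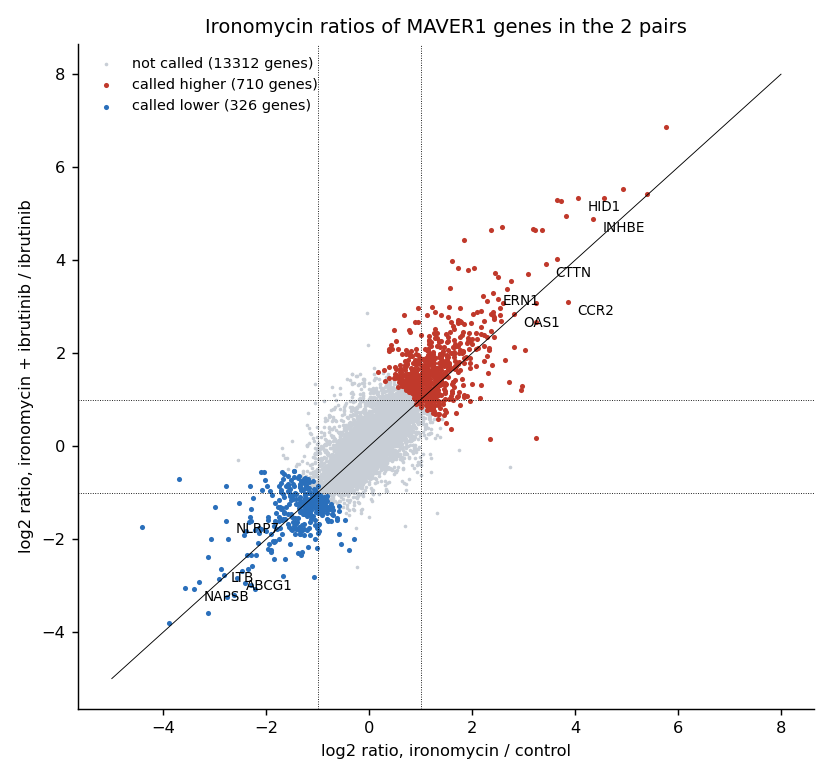
Each point is 1 of the 14348 tested genes, with its log2 ratio of ironomycin to control on the x axis and of both drugs to ibrutinib on the y axis, both from normalised CPM with a prior count of 2. Most called rises lie above the diagonal, where the ratio is larger in the pair with ibrutinib (549 of 710), while the falls lie on both sides of it (182 of 326 larger with ibrutinib); dotted lines mark 1 and -1.

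The largest rises that held in both pairs included genes that were near or below 5 CPM without ironomycin. *INHBE*, which encodes the βE subunit of inhibins and activins, was at 3.22 CPM in control, 3.06 with ibrutinib, 66.9 with ironomycin and 91.6 with both drugs (log2 fold change 4.64, standard error 0.14, adjusted p = 1.4e-07). *HID1*, a protein of the trans-Golgi network, was at 1.82 CPM in control, 2.12 with ibrutinib, 31.3 with ironomycin and 87.2 with both drugs (log2 fold change 4.81, standard error 0.22, adjusted p = 1.0e-06). *CTTN*, which encodes the actin-binding protein cortactin, was at 4.78 CPM in control, 4.39 with ibrutinib, 52.2 with ironomycin and 66.7 with both drugs (log2 fold change 3.69, standard error 0.13, adjusted p = 2.9e-07). In each of these genes the libraries with ironomycin were far above those without it, and the library with both drugs was the highest. *CHPF*, an enzyme of chondroitin synthesis, had log2 ratios of 3.35 and 4.66 without and with ibrutinib, *UNC5B*, a netrin receptor, 3.83 and 4.95, *ADGRG1*, an adhesion G-protein-coupled receptor, 3.65 and 5.28, and *FBXO32*, a ubiquitin ligase subunit, 2.75 and 3.56. *UNC5B* and *ADGRG1* held 12 to 22 reads per library without ironomycin, so their ratios carry more counting error than the others. *ADGRG1*, with 17 and 12 reads there, passed the filter on low counts only through the libraries with ironomycin, so it had to differ. *ASS1*, the argininosuccinate synthase of arginine synthesis, was at 51.8 CPM in control, 52.5 with ibrutinib, 317 with ironomycin and 443 with both drugs (log2 fold change 2.84, standard error 0.12, adjusted p = 4.7e-07). The remaining genes of the largest 12, *OAS1*, *ALDH1L2*, *CHAC1* and *ERN1*, belong to groups described below.

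Among the UPR sensors and their transcription factors, rises were called and no falls. Of 18 tested genes 8 were called higher and 0 lower, 14 were higher at the adjusted p-value alone and 0 lower, and the median log2 fold change was 0.66, against 0.01 over all genes. Over all tested genes 4.95% were called higher and 2.27% lower, and 23.4% were higher and 23.1% lower at the adjusted p-value alone. *ERN1* was at 27.7 CPM in control, 24.8 with ibrutinib, 147 with ironomycin and 245 with both drugs (log2 fold change 2.86, standard error 0.17, adjusted p = 3.7e-06). *EIF2AK3* was at 26.1 CPM in control, 27.5 with ibrutinib, 57.0 with ironomycin and 72.6 with both drugs (log2 fold change 1.27, standard error 0.10, adjusted p = 1.4e-05). *WFS1*, an ER membrane protein, was at 15.7 CPM in control, 17.6 with ibrutinib, 40.8 with ironomycin and 69.0 with both drugs (log2 fold change 1.68, standard error 0.13, adjusted p = 1.6e-05). For these genes the 2 libraries without ironomycin were close to each other. *DDIT3* was at 14.8 CPM in control, 12.9 with ibrutinib, 34.1 with ironomycin and 49.4 with both drugs (log2 fold change 1.57, standard error 0.15, adjusted p = 4.7e-05). *TRIB3*, a pseudokinase induced by CHOP, had log2 ratios of 1.14 and 1.77, and *PPP1R15A*, the phosphatase subunit that restores translation, of 1.09 and 1.82. *XBP1* was at 429 CPM in control, 452 with ibrutinib, 482 with ironomycin and 520.3 with both drugs (log2 fold change 0.19, standard error 0.08, adjusted p = 0.077), so its total transcript did not pass the test, and spliced and unspliced forms cannot be told apart in counts per gene. *ATF4* (log2 fold change 0.52, standard error 0.11, adjusted p = 0.0037) and *ATF3* (log2 fold change 0.57, standard error 0.13, adjusted p = 0.0059) passed the adjusted p-value and not the fold minimum.

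The targets of ATF4 and CHOP held the most called genes of any list: 12 of 37 were called higher and 0 lower, with 29 higher and 0 lower at the adjusted p-value alone and a median of 0.62. The shares over all tested genes were 4.95% and 2.27% called, and 23.4% and 23.1% at the adjusted p-value alone. *GDF15*, a stress-induced cytokine, held 4 reads in control, 5 with ibrutinib, 144 with ironomycin and 290 with both drugs, and passed the filter on low counts only through the libraries with ironomycin. *CHAC1*, which degrades glutathione, was at 3.78 CPM in control, 4.31 with ibrutinib, 20.3 with ironomycin and 30.6 with both drugs (log2 fold change 2.64, standard error 0.14, adjusted p = 2.4e-06). *ALDH1L2*, a mitochondrial enzyme of folate metabolism, was at 21.4 CPM in control, 26.04 with ibrutinib, 124 with ironomycin and 184 with both drugs (log2 fold change 2.68, standard error 0.10, adjusted p = 2.9e-07). These genes were again highest with both drugs. *VLDLR*, a lipoprotein receptor, had log2 ratios of 2.12 and 2.12, *SLC6A9*, a glycine transporter, of 1.81 and 2.04, *CCPG1*, an ER-phagy receptor, of 1.72 and 2.16 and *SESN2*, a stress-induced inhibitor of mTORC1, of 1.54 and 1.76. *SLC7A11*, the cystine transporter that supplies glutathione synthesis, was at 10.4 CPM in control, 10.6 with ibrutinib, 28.1 with ironomycin and 43.4 with both drugs (log2 fold change 1.74, standard error 0.14, adjusted p = 1.7e-05). The aminoacyl-tRNA synthetases, many of which ATF4 is known to induce, did not move together: 1 of 20 was called higher, *WARS1* (1.42), 4 were higher and 8 lower at the adjusted p-value alone, and their median of -0.01 became 0.05 with library totals in place of TMM scaling.

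Rises were also called in several groups of ER genes, to be read beside the 4.95% called higher over all tested genes. At the adjusted p-value alone 23.4% of all tested genes were higher and 23.1% lower. Among 29 ER chaperones and disulfide isomerases 6 were called higher, 24 were higher at the adjusted p-value alone and 0 were lower (median 0.56). *PDIA2*, a disulfide isomerase, held 14 reads in control, 8 with ibrutinib, 218 with ironomycin and 393 with both drugs, and likewise passed the filter only through the libraries with ironomycin. *DNAJB9*, a co-chaperone, was at 14.4 CPM in control, 17.2 with ibrutinib, 40.5 with ironomycin and 61.2 with both drugs (log2 fold change 1.66, standard error 0.11, adjusted p = 5.2e-06), and *HSPA5*, which encodes the main ER chaperone BiP, was at 448 CPM in control, 462 with ibrutinib, 689 with ironomycin and 846 with both drugs (log2 fold change 0.75, standard error 0.09, adjusted p = 1.4e-04), below the fold minimum. In ER-associated degradation (ERAD), the route by which misfolded proteins leave the ER for the proteasome, 6 of 26 genes were called higher and 0 lower, with 17 higher and 5 lower at the adjusted p-value alone. *SEL1L*, the scaffold of the ERAD ubiquitin ligase, was at 65.4 CPM in control, 72.4 with ibrutinib, 176 with ironomycin and 259 with both drugs (log2 fold change 1.64, standard error 0.11, adjusted p = 4.8e-06), and *DERL3*, a channel subunit, was at 41.1 CPM in control, 45.9 with ibrutinib, 129.8 with ironomycin and 187 with both drugs (log2 fold change 1.84, standard error 0.10, adjusted p = 3.0e-06). *EDEM1*, which trims mannose from misfolded glycoproteins, had log2 ratios of 1.32 and 1.35, *SYVN1*, the ubiquitin ligase, of 0.97 and 1.29 and *HERPUD1* of 0.96 and 1.46. Of 42 genes of ER to Golgi transport 4 were called higher and 0 lower (median 0.44), led by *SEC24D*, a COPII coat subunit (2.15), *ARFGAP3* (1.71) and *GOLGB1* (1.66), and of 39 genes of N-linked glycosylation 2, *PGM3* (1.35) and *MAN1A1* (1.09), which is near the 4.95% called higher over all tested genes. Several of these calls lay at the fold minimum: without the library with both drugs *HYOU1* stood at 0.86, *DNAJC3* at 0.97, *ERLEC1* at 0.88, *FKBP14* at 0.65 and *SEC24A* at 0.98, and without the ibrutinib library *SYVN1* stood at 0.99; without the control library *ERLEC1* stood at 0.999, adjusted p = 0.0082 and *SEC24A* at 0.996, adjusted p = 0.0042, both just under it.

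**Figure D2:**
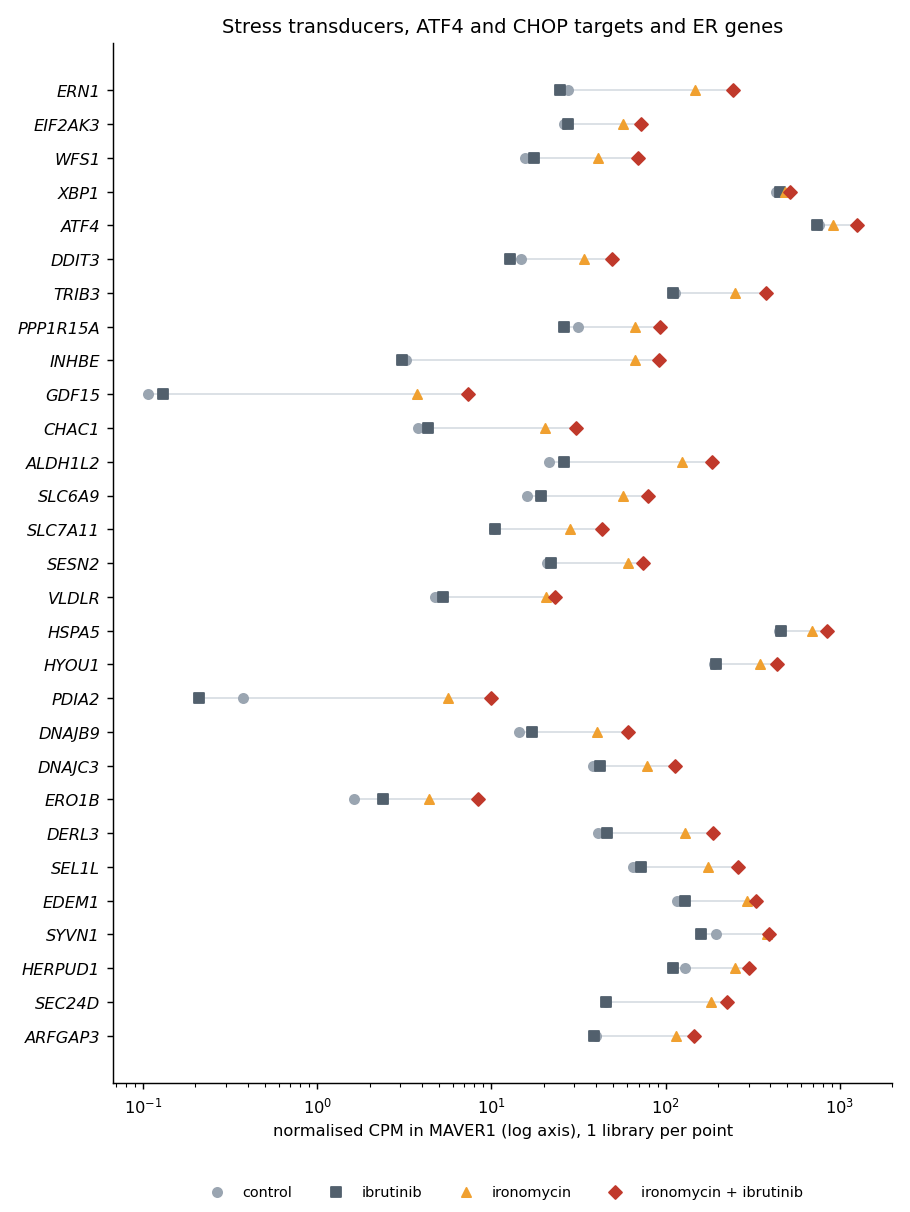
Normalised CPM in MAVER1, on a log axis, of UPR sensors and factors, targets of ATF4 and CHOP, ER chaperones, ERAD genes and 2 ER to Golgi genes, with 1 point for each of the 4 libraries. In every gene shown both libraries with ironomycin lie to the right of both without it, which the call largely fixes for the called genes. The gap is wide for *ERN1* (27.7 and 24.8 against 147 and 245 CPM) and narrow for *XBP1*.

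The promoters of the rising stress genes were searched for known response elements in the window from 250 bases before to 50 bases after the RefSeq start site, on both strands. The elements were the ER stress element (ERSE, CCAAT and CCACG with 9 bases between), ERSE-II (ATTGG and CCACG with 1 base between), the C/EBP-ATF element (CARE: TTGCATCA), the core of the UPR element (UPRE: TGACGTGG) and, for the sterol genes, the sterol element (SRE: TCACCCCAC). Of 13228 tested genes with a symbol, 10134 had a promoter in the RefSeq table. ERSE was found in 0.489% of 409 called rises, 0% of 207 called falls and 0.138% of all, ERSE-II in 0.489%, 0% and 0.0987%, CARE in 1.22%, 0.483% and 0.474%, the UPRE core in 1.96%, 0.966% and 0.868% and SRE in 0.978%, 0.483% and 0.444%. These shares rest on 2, 2, 5, 8 and 4 called rises. Among the tested ER chaperones, whatever their change, 6 of 27 promoters held ERSE (22.2%). Of the chaperones called higher that had a promoter, only *ERO1B* held it. Of the 25 called rises with a promoter in the lists of UPR factors, ER chaperones, ERAD and ATF4 and CHOP targets, 4 held an ERSE, ERSE-II, CARE or UPRE core, beside 158 of all 10134 tested genes with a promoter. The 250 upstream bases of these 4 are shown because these genes rose together, and those without an ERSE were added after the search. They are *CHAC1* (chr15:40953221-40953470, plus strand, with a CARE), *ERO1B* (chr1:236281959-236282208, minus strand, with an ERSE on the reverse strand), *HERPUD1* (chr16:56931892-56932141, plus strand, with a CARE and an ERSE-II) and *HYOU1* (chr11:119057206-119057455, minus strand, with 2 ERSE-II on the reverse strand, of which 1 overlaps a UPRE core), in GRCh38.p14 and read in the direction of the gene, with the elements in capitals.
CHAC1: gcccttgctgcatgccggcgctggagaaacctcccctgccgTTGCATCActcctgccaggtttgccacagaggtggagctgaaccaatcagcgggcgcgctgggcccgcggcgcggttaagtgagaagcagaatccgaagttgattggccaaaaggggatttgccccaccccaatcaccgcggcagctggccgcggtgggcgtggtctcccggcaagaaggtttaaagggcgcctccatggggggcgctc
ERO1B: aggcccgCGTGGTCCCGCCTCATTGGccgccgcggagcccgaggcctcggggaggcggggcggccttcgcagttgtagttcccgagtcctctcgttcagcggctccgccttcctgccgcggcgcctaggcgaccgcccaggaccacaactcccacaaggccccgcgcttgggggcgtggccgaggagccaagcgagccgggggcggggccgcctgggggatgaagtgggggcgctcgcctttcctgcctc
HERPUD1: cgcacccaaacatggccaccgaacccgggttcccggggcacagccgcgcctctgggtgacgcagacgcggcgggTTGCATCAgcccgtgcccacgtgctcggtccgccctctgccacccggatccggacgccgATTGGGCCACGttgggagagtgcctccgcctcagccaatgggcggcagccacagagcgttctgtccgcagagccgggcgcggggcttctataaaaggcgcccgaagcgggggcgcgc
HYOU1: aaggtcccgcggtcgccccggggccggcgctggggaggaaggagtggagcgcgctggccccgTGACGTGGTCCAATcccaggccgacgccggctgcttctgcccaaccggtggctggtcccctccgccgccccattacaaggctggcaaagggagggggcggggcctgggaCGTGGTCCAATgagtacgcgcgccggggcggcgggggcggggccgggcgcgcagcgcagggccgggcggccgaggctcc
The gap between element and start site was 201 bases for the CARE of *CHAC1*, 224 for the ERSE of *ERO1B*, 168 for the CARE and 106 for the ERSE-II of *HERPUD1*, and 174 and 68 for the ERSE-II of *HYOU1*. *ERO1B*, an ER oxidase, had log2 ratios of 1.39 and 1.80, and *HYOU1*, an ER chaperone, of 0.87 and 1.16.

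Of 50 lysosomal genes 6 were called higher and 0 lower, beside 4.95% and 2.27% over all tested genes. At the adjusted p-value alone 24 were higher and 5 lower (median 0.22), beside 23.4% and 23.1% over all tested genes. *NPC2*, which carries cholesterol out of the lysosome, was at 15.9 CPM in control, 15.4 with ibrutinib, 46.4 with ironomycin and 50.6 with both drugs (log2 fold change 1.63, standard error 0.10, adjusted p = 3.7e-06). *CTSD*, which encodes the protease cathepsin D, was at 50.6 CPM in control, 53.4 with ibrutinib, 112 with ironomycin and 150.4 with both drugs (log2 fold change 1.32, standard error 0.10, adjusted p = 1.2e-05). Both were called, so the rise in each pair was asked for by the call and adds no support. *SMPD1*, the acid sphingomyelinase, had log2 ratios of 1.11 and 1.64, *TPP1*, a lysosomal peptidase, of 1.15 and 1.07 and *NEU1*, a sialidase, of 1.03 and 1.67. Of 41 genes of ER-phagy and autophagy 6 were called higher and 0 lower. *WIPI1*, which binds early autophagosomes, was at 4.21 CPM in control, 3.24 with ibrutinib, 13.0 with ironomycin and 19.8 with both drugs (log2 fold change 2.12, standard error 0.20, adjusted p = 4.6e-05), *TP53INP1* had log2 ratios of 1.96 and 1.69 and *CALCOCO1*, an ER-phagy receptor, of 1.35 and 2.27. *GABARAPL1* and *OPTN* were called at 1.11 and 1.14, but without the library with both drugs they stood at 0.93 and 0.96, and without the control library *GABARAPL1* stood at 0.99; for *IDUA* (1.12) the values were 0.72, adjusted p = 0.0055 and 1.02, adjusted p = 0.057.

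Of 21 tested genes of iron uptake, storage and sensing, 0 were called higher and 1 lower, near the 4.95% and 2.27% over all tested genes. At the adjusted p-value alone 3 were higher and 4 lower, beside 23.4% and 23.1% over all tested genes. *TFRC*, the transferrin receptor, was at 278 CPM in control, 257 with ibrutinib, 519 with ironomycin and 387 with both drugs (log2 fold change 0.75, standard error 0.09, adjusted p = 1.9e-04). *FTH1*, the ferritin heavy chain, was at 111 CPM in control, 108 with ibrutinib, 185 with ironomycin and 186 with both drugs (log2 fold change 0.76, standard error 0.08, adjusted p = 7.6e-05), and *FTL*, the light chain, was at 835 CPM in control, 734 with ibrutinib, 884 with ironomycin and 864 with both drugs (log2 fold change 0.16, standard error 0.08, adjusted p = 0.14). *TFRC* and *FTH1* were thus higher in both pairs by less than the fold minimum. *SLC40A1*, the iron exporter ferroportin, held 0 or 1 read per library and was not tested. The 1 gene called lower was *HFE*, a regulator of iron uptake (log2 fold change -1.12, standard error 0.27, adjusted p = 0.0064), with 35 to 103 reads per library; it was not called without the library with both drugs (-0.95, adjusted p = 0.027) or without the ibrutinib library (-0.83, adjusted p = 0.13), or by DESeq2 (-1.13, adjusted p = 0.079). The genes of iron-sulfur cluster and heme synthesis had a median of -0.30, with 0 of 34 called and 2 higher and 18 lower at the adjusted p-value alone, of which the last was 4 without the control library, 10 without the ibrutinib library and 11 without the library with both drugs. Of 39 genes of ferroptosis and NRF2 defence 2 were called higher, *CHAC1* and *SLC7A11*, near the share over all tested genes. At the adjusted p-value alone 9 were higher, near the 23.4% over all tested genes, and 16 lower, beside 23.1%. *GPX4*, the peroxidase that protects membrane lipids, was at 111 CPM in control, 95.2 with ibrutinib, 118 with ironomycin and 118 with both drugs (log2 fold change 0.20, standard error 0.09, adjusted p = 0.084), and *HMOX1*, the heme oxygenase, was at 35.4 CPM in control, 35.97 with ibrutinib, 24.6 with ironomycin and 37.1 with both drugs (log2 fold change -0.23, standard error 0.13, adjusted p = 0.16).

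The cholesterol efflux transporter *ABCG1* was at 99.8 CPM in control, 107 with ibrutinib, 16.7 with ironomycin and 15.1 with both drugs (log2 fold change -2.70, standard error 0.10, adjusted p = 2.9e-07), and *ABCA1* was at 39.3 CPM in control, 54.9 with ibrutinib, 10.5 with ironomycin and 11.6 with both drugs (log2 fold change -2.08, standard error 0.11, adjusted p = 2.5e-06). Both are induced by the liver X receptors (LXR) when sterols are plentiful, and in both the libraries with ironomycin lay far below those without it. They were the 2 called genes among 13 tested LXR targets. At the adjusted p-value alone 1 of these targets was higher and 8 lower, beside 23.4% and 23.1% over all tested genes. Of 36 genes of cholesterol and fatty acid synthesis 2 were called higher and 0 lower, near the share over all tested genes (4.95% and 2.27%). At the adjusted p-value alone 21 of them were higher and 5 lower (median 0.37), to be read beside the same 23.4% and 23.1%. *HMGCS1*, which makes the precursor of mevalonate, was at 56.7 CPM in control, 47.7 with ibrutinib, 151 with ironomycin and 133 with both drugs (log2 fold change 1.45, standard error 0.08, adjusted p = 3.2e-06). *LSS*, the lanosterol synthase, was called at 1.03; it stood at 0.99 without the ironomycin library and at 0.90 without the ibrutinib library. *SCARB1*, the receptor for high-density lipoprotein, was at 163 CPM in control, 150.4 with ibrutinib, 134 with ironomycin and 126 with both drugs (log2 fold change -0.27, standard error 0.08, adjusted p = 0.018).

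Many genes of growth and respiration were lower by less than the fold minimum. Their counts stand beside 23.1% lower and 23.4% higher over all tested genes at the adjusted p-value alone. In the nuclear-encoded respiratory chain, 0 of 74 genes were called, yet 58 were lower and 0 higher at the adjusted p-value alone, with a median of -0.49. The same held for ribosome biogenesis and MYC (37 of 43 lower, 0 higher, 2 called, median -0.56), mitosis and spindle (42 of 53 lower, 0 higher, 3 called, median -0.44) and DNA replication and nucleotide supply (31 of 53 lower, 0 higher, 0 called, median -0.33). These counts were smaller without the control library, without the ibrutinib library and without the library with both drugs. Those fits were unpaired and held fewer libraries, so the paired effect cannot be judged from them. Without the library with both drugs the replication median was -0.13. The medians of these 4 lists stayed below 0 with each library left out. For the last 2 lists the median ratio was further below 0 in the pair with ibrutinib, -0.68 against -0.27 for mitosis and -0.49 against -0.16 for replication. *PLK1*, a mitotic kinase, was at 253 CPM in control, 243 with ibrutinib, 114 with ironomycin and 86.9 with both drugs (log2 fold change -1.32, standard error 0.10, adjusted p = 1.0e-05). *CDC20*, an activator of the anaphase-promoting complex, and *CCNB1*, the gene of cyclin B1, were called at -1.08 and -1.10; without the library with both drugs they stood at -0.90 and -0.94. *MKI67*, the proliferation marker Ki-67, was at 495 CPM in control, 584 with ibrutinib, 526 with ironomycin and 474 with both drugs (log2 fold change -0.11, standard error 0.10, adjusted p = 0.402), and did not pass the test. Of the 13 protein genes of the mitochondrial genome 7 were lower and 1 higher at the adjusted p-value alone.

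Several glycolytic enzymes and 2 of 38 heat shock proteins fell past the fold minimum. Over all tested genes 2.27% were called lower and 4.95% higher. At the adjusted p-value alone 23.1% of all tested genes were lower and 23.4% higher. Of 39 hypoxia targets and glycolytic genes 6 were called lower and 2 higher, with 22 lower and 8 higher at the adjusted p-value alone. The called falls numbered 2 without the library with both drugs, 3 without the control library, 10 without the ibrutinib library and 3 when scaled by library totals, and the count lower at the adjusted p-value alone was 14 without the control library. The 6 falls were all enzymes of glycolysis or lactate production. *PKM*, the pyruvate kinase, was at 4201 CPM in control, 3460.5 with ibrutinib, 1846 with ironomycin and 1489.9 with both drugs (log2 fold change -1.20, standard error 0.08, adjusted p = 6.0e-06). *TPI1*, the triosephosphate isomerase, was at 1248 CPM in control, 1032 with ibrutinib, 551 with ironomycin and 402 with both drugs (log2 fold change -1.27, standard error 0.09, adjusted p = 5.8e-06). *LDHA*, the lactate dehydrogenase, was at 1705 CPM in control, 1422 with ibrutinib, 807 with ironomycin and 593 with both drugs (log2 fold change -1.17, standard error 0.09, adjusted p = 9.9e-06). Their levels with ironomycin were below those without it in each pair, and each was also lower with ibrutinib alone than in control. *ENO1* (-1.05) and *PGAM1* (-1.005) were called near the fold minimum and stood at -0.99 and -0.94 when scaled by library totals; without the library with both drugs *ENO1*, *PGAM1* and *LDHA* stood at -0.85, -0.81 and -0.95, and without the control library *ENO1* and *PGAM1* stood at -0.90 and -0.85. The rise in this list was *BHLHE40*, a transcriptional repressor (log2 fold change 1.47, standard error 0.12, adjusted p = 2.0e-05), together with *DDIT4*, an inhibitor of mTORC1 named after its value was seen. Heat shock proteins had the lowest median of all lists, -0.65, with 28 of 38 lower and 2 higher at the adjusted p-value alone. *HSPB1*, the gene of the small chaperone HSP27, was at 352 CPM in control, 293 with ibrutinib, 129 with ironomycin and 91.8 with both drugs (log2 fold change -1.56, standard error 0.09, adjusted p = 3.2e-06), *FKBP4*, an HSP90 co-chaperone, was called at -1.14 and stood at -0.98 without the library with both drugs, and *HSPA13*, a chaperone of the microsomes, was the 1 called higher (1.56).

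**Figure D3:**
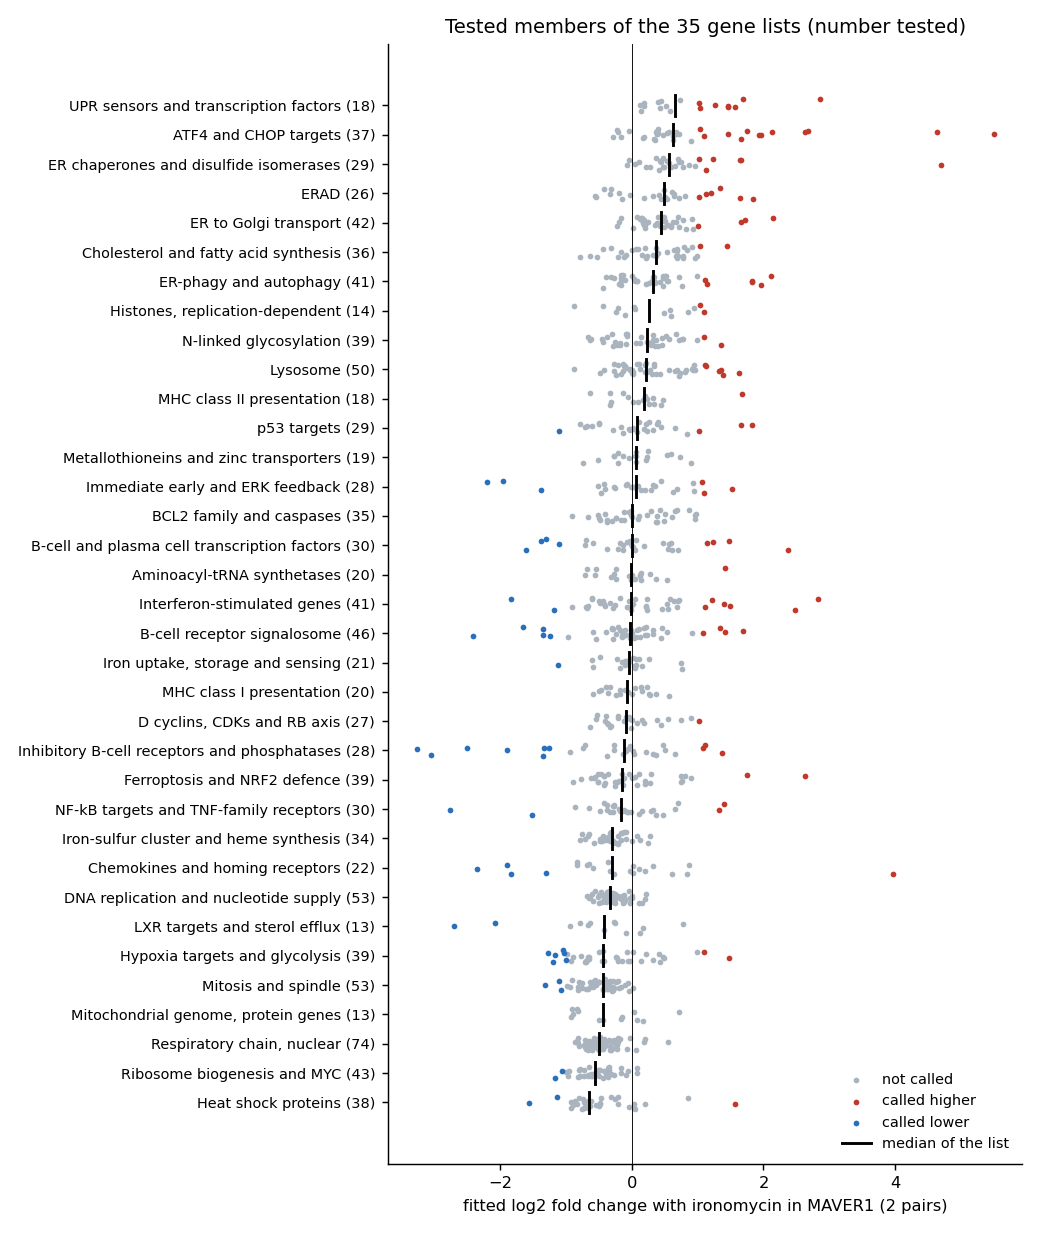
Fitted log2 fold changes with ironomycin (x axis) of the tested members of each of the 35 gene lists, ordered by the median, which a black bar marks. Called members are red (higher) or blue (lower), and the lists at the top hold called rises and no called falls, whereas the respiratory chain, with a median of -0.49, shifts with no called member.

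The genes of the BCR signal showed no shared direction. Of 46 tested members of the BCR signalosome 4 were called higher and 5 lower, 12 were higher and 14 lower at the adjusted p-value alone, and the median of -0.04 turned to 0.03 with library totals in place of TMM. Over all tested genes 4.95% were called higher and 2.27% lower, and 23.4% and 23.1% were so at the adjusted p-value alone. *SLA*, an adaptor that limits antigen receptor signals, was at 12.5 CPM in control, 4.49 with ibrutinib, 2.53 with ironomycin and 0.712 with both drugs (log2 fold change -2.42, standard error 0.18, adjusted p = 1.2e-05), and *STAP1*, an adaptor downstream of the BCR, was at 21.0 CPM in control, 18.0 with ibrutinib, 7.65 with ironomycin and 4.83 with both drugs (log2 fold change -1.66, standard error 0.14, adjusted p = 2.2e-05). *SLA* was also lower with ibrutinib alone, and was not called without the control library (-1.47, adjusted p = 0.086). On the rising side *SH3BP2*, an adaptor, was at 9.07 CPM in control, 9.33 with ibrutinib, 28.8 with ironomycin and 30.8 with both drugs (log2 fold change 1.69, standard error 0.11, adjusted p = 4.4e-06), and *RASGRP1*, an exchange factor for Ras, was called at 1.34 but not without the ironomycin library (0.64, adjusted p = 0.071) or the ibrutinib library (1.0005, adjusted p = 0.0998). *BTK*, the target of ibrutinib, was at 215 CPM in control, 184 with ibrutinib, 188 with ironomycin and 184 with both drugs (log2 fold change -0.10, standard error 0.08, adjusted p = 0.37).

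Among receptors and phosphatases that restrain the BCR, 7 of 28 were called lower and 3 higher, beside 2.27% and 4.95% over all tested genes. Of the falls 4 were Fc receptor-like genes. *FCRL2* was at 11.8 CPM in control, 3.63 with ibrutinib, 1.70 with ironomycin and 0.865 with both drugs (log2 fold change -2.51, standard error 0.21, adjusted p = 2.3e-05), and *FCRL5* at 48.5 CPM in control, 29.8 with ibrutinib, 22.01 with ironomycin and 11.4 with both drugs (log2 fold change -1.26, standard error 0.10, adjusted p = 2.0e-05). *FCRL1* held 105 reads in control, 79 with ibrutinib, 16 with ironomycin and 7 with both drugs, and *FCRL3* held 38 or 39 reads without ironomycin and 4 in each library with it; both passed the filter only through the libraries without ironomycin. *FCGR2B*, the inhibitory receptor for IgG, was at 48.2 CPM in control, 26.4 with ibrutinib, 12.9 with ironomycin and 7.10 with both drugs (log2 fold change -1.90, standard error 0.10, adjusted p = 2.6e-06), and *FCGR2C* had log2 ratios of -2.15 and -2.08; these 2 genes are near-identical copies whose reads the counting could split, so their values are uncertain. *CD22*, a sialic acid-binding inhibitory receptor, was at 56.9 CPM in control, 47.6 with ibrutinib, 17.3 with ironomycin and 23.8 with both drugs (log2 fold change -1.35, standard error 0.15, adjusted p = 8.6e-05). *PTPN6*, the phosphatase SHP-1, was at 122 CPM in control, 52.1 with ibrutinib, 45.6 with ironomycin and 22.1 with both drugs (log2 fold change -1.33, standard error 0.09, adjusted p = 5.8e-06). In *PTPN6* the ironomycin library lay just below the ibrutinib library and the library with both drugs was lowest, so the level was also lower with ibrutinib alone. In the unpaired fits *PTPN6* was not called without the control library (-0.62) or without the library with both drugs (-0.92), and *FCRL5* likewise (-0.83 and -0.82). Both genes were also lower with ibrutinib alone, so these unpaired values mix in that difference. In the pair left intact without the control library, *PTPN6* was at 52.1 CPM with ibrutinib and 22.1 with both drugs.

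Transcription factors of B cells and plasma cells split evenly, with 4 of 30 called higher and 4 lower, beside 4.95% and 2.27% over all tested genes. *BCL6*, the germinal centre repressor, was at 17.8 CPM in control, 16.9 with ibrutinib, 7.26 with ironomycin and 6.16 with both drugs (log2 fold change -1.38, standard error 0.12, adjusted p = 3.3e-05). *ID3*, an inhibitor of E proteins, was at 344 CPM in control, 400.0 with ibrutinib, 128 with ironomycin and 117 with both drugs (log2 fold change -1.60, standard error 0.10, adjusted p = 3.7e-06), and *IRF8*, a B-cell interferon regulatory factor, was at 80.2 CPM in control, 48.1 with ibrutinib, 30.8 with ironomycin and 20.4 with both drugs (log2 fold change -1.31, standard error 0.09, adjusted p = 7.1e-06), with -0.91 when the control library was left out. *SOX11*, a factor characteristic of MCL, was at 53.7 CPM in control, 58.5 with ibrutinib, 140.1 with ironomycin and 175 with both drugs (log2 fold change 1.48, standard error 0.09, adjusted p = 3.6e-06), and *MYB* at 93.0 CPM in control, 93.5 with ibrutinib, 231 with ironomycin and 209.9 with both drugs (log2 fold change 1.24, standard error 0.08, adjusted p = 6.0e-06). *MEF2B* held 11 or 12 reads without ironomycin and 60 or 64 with it, and passed the filter only through the latter. Among plasma cell markers, *TNFRSF17*, the receptor BCMA, was at 34.9 CPM in control, 33.4 with ibrutinib, 91.7 with ironomycin and 87.8 with both drugs (log2 fold change 1.39, standard error 0.08, adjusted p = 3.7e-06), *PRDM1*, the gene of BLIMP-1, was called higher (478 and 550 reads without ironomycin against 1019 and 1334 with it), *IRF4* had a log2 fold change of 0.70 (adjusted p = 0.00011), and *SDC1*, which encodes CD138, had 0.38 (adjusted p = 0.0097). The 4 plasma cell markers together held 13736 and 14045 reads without ironomycin and 24134 and 24716 with it. Most of these were of *IRF4*, with 10177 and 10872 without and 17387 and 17951 with it. The 8 B-cell markers together held 70181 and 71752 without and 49234 and 53345 with it. They did not all fall. By edgeR's test *PAX5* (-0.13, adjusted p = 0.22) and *EBF1* (-0.03, adjusted p = 0.82) did not pass. The other B-cell markers were lower at the adjusted p-value, *MS4A1* by only -0.33, and only *CD22* was called. In bulk samples fewer cells of a type and less RNA per cell cannot be told apart.

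Other deep falls were of genes with unlike roles. *LTB*, the gene of lymphotoxin β, was at 30.4 CPM in control, 43.9 with ibrutinib, 4.11 with ironomycin and 6.97 with both drugs (log2 fold change -2.76, standard error 0.12, adjusted p = 6.1e-07). *NAPSB*, a transcribed pseudogene of an aspartic protease, was at 46.0 CPM in control, 18.5 with ibrutinib, 4.31 with ironomycin and 2.16 with both drugs (log2 fold change -3.28, standard error 0.13, adjusted p = 4.7e-07). With ibrutinib alone *LTB* was higher than in control and *NAPSB* lower, whereas with ironomycin both were lower in each pair, as the call requires. *LSP1*, a leukocyte protein that binds actin, was at 365 CPM in control, 330.3 with ibrutinib, 78.6 with ironomycin and 94.9 with both drugs (log2 fold change -2.01, standard error 0.11, adjusted p = 2.4e-06), *DFFB*, the nuclease that cuts DNA in apoptosis, was at 10.7 CPM in control, 12.6 with ibrutinib, 2.45 with ironomycin and 3.61 with both drugs (log2 fold change -1.95, standard error 0.15, adjusted p = 1.5e-05), and *NLRP7* and *PALD1* had log2 ratios of -2.77 and -1.61 and of -1.83 and -1.61. Of 22 chemokines and homing receptors 4 were called lower and 1 higher, beside 2.27% and 4.95% over all tested genes. *ITGAL*, an integrin of leukocytes, had log2 ratios of -1.21 and -1.41, *ACKR3* held 72 and 77 reads without ironomycin and 21 and 22 with it, and *CXCL10* 55 and 68 against 15 and 19. *CXCL10* passed the filter on low counts only through the libraries without ironomycin, so it had to differ. The rise was *CCR2*, with 22 reads in control, 2 with ibrutinib, 360 with ironomycin and 33 with both drugs, and it was not called without the ironomycin library (1.39, adjusted p = 0.11) or the ibrutinib library (3.09, adjusted p = 0.062).

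**Figure D4:**
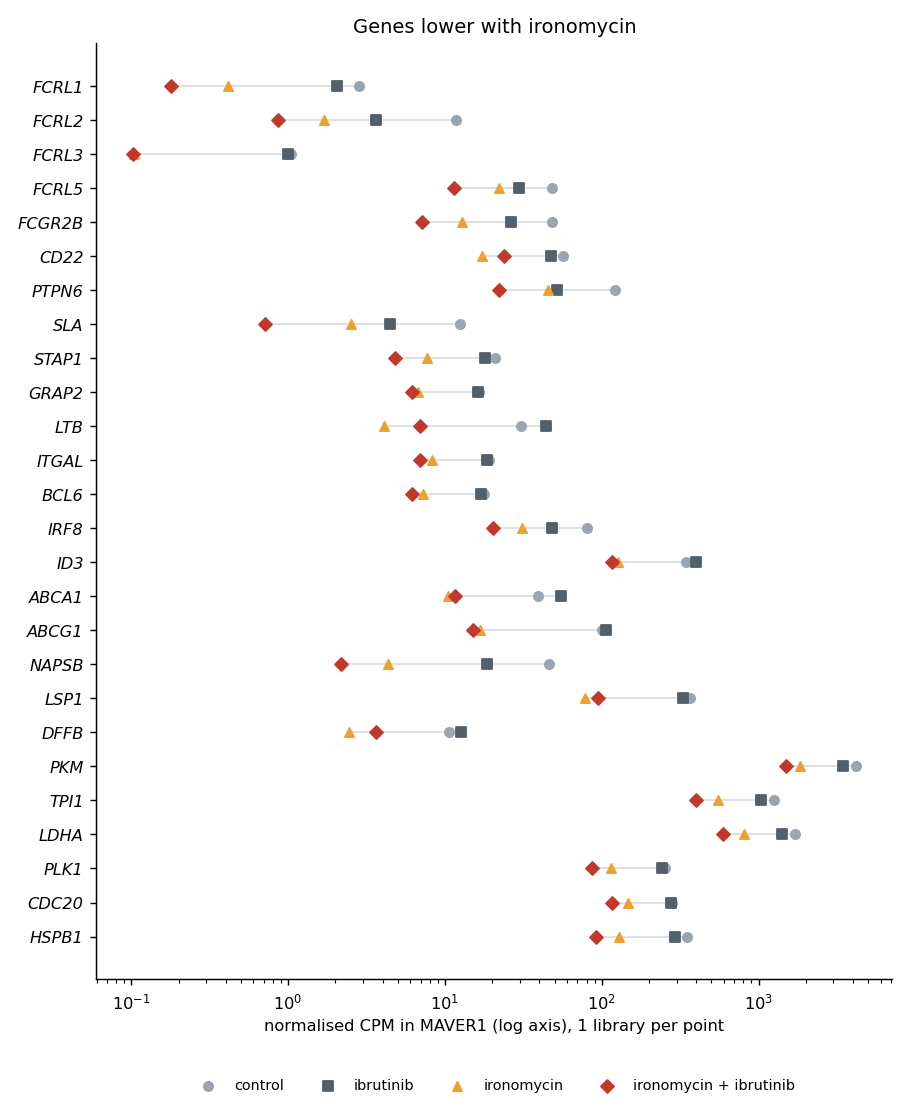
Normalised CPM in MAVER1, on a log axis, of named genes called lower with ironomycin, with 1 point for each of the 4 libraries. Both libraries with ironomycin lie to the left of both without it in every gene shown, which the call largely fixes. The smallest gap is that of *PTPN6*, where the ironomycin library (45.6 CPM) and the ibrutinib library (52.1 CPM) are close.

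Of the remaining lists, most held few called genes, to be read beside the 4.95% called higher and 2.27% lower over all tested genes. At the adjusted p-value alone 23.4% of all tested genes were higher and 23.1% lower. Of 28 immediate early and ERK feedback genes 3 were called higher and 3 lower: *SPRY1*, an inhibitor of receptor signals to ERK, had log2 ratios of -1.83 and -2.04, *DUSP6*, an ERK phosphatase, of -1.90 and -2.27 with 15 to 78 reads per library, and *ETV4* was called at -1.39 but not without the control library (-0.97, adjusted p = 0.15) or the library with both drugs (-0.73, adjusted p = 0.0093). Of the rises, *EGR2* (1.52) and *NR4A3* (1.10) were not called without the ironomycin library (0.94, adjusted p = 0.042, and 0.58, adjusted p = 0.13) or the ibrutinib library (1.08, adjusted p = 0.093, and 0.71, adjusted p = 0.19), and *FOSL2* (1.07) not without the control library (1.03, adjusted p = 0.077), the library with both drugs (0.98, adjusted p = 0.0082) or by DESeq2 (1.06, adjusted p = 0.053). Of 41 interferon-stimulated genes 6 were called higher and 2 lower. *OAS1*, an antiviral sensor of double-stranded RNA, was at 5.26 CPM in control, 6.27 with ibrutinib, 37.2 with ironomycin and 45.0 with both drugs (log2 fold change 2.83, standard error 0.11, adjusted p = 3.6e-07), *OAS3* had log2 ratios of 2.81 and 2.14 and *STAT2* of 1.23 and 1.74, while *GBP1* had -1.39 and -2.30 and *MX1* -1.25 and -1.13. So members of the same response went both ways, and the list's median of -0.01 turned to 0.05 with library totals. Of 18 genes of MHC class II presentation 1 was called (*IFI30*, 9 and 16 reads without ironomycin, 38 and 44 with it). *IFI30* passed the filter on low counts only through the libraries with ironomycin, so it had to differ. It was not called without the control library (1.32) or by DESeq2 (1.70, adjusted p = 0.078). Of 20 genes of MHC class I presentation 0 were called, with 4 higher and 7 lower at the adjusted p-value alone.

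Among 35 genes of the BCL2 family and caspases 0 were called by edgeR's test, and 15 were higher and 8 lower at the adjusted p-value alone; with each library left out in turn 0 to 5 were called higher and 0 or 1 lower, and scaling by library totals gave 3 called higher. The list counts in this paragraph stand beside 4.95% called higher and 2.27% called lower over all tested genes. At the adjusted p-value alone 23.4% of all tested genes were higher and 23.1% lower, and several of these lists lay near those shares. *BCL2*, which blocks apoptosis, was at 569 CPM in control, 561 with ibrutinib, 1081 with ironomycin and 1151 with both drugs (log2 fold change 0.98, standard error 0.08, adjusted p = 2.1e-05), just under the fold minimum. *MCL1*, another anti-apoptotic member, was at 224 CPM in control, 214 with ibrutinib, 193 with ironomycin and 209.6 with both drugs (log2 fold change -0.12, standard error 0.08, adjusted p = 0.25), and *BCL2L1* at 115 CPM in control, 105 with ibrutinib, 112 with ironomycin and 127 with both drugs (log2 fold change 0.11, standard error 0.09, adjusted p = 0.34). *BAX* and *BAK1*, which permeabilise mitochondria, had log2 fold changes of -0.50 (adjusted p = 0.0011) and -0.67 (adjusted p = 1.6e-04), and *CYCS*, which encodes cytochrome c, of -0.51 (adjusted p = 6.6e-04). *CCND1* was at 4129 CPM in control, 4480.2 with ibrutinib, 4389.5 with ironomycin and 4656 with both drugs (log2 fold change 0.07, standard error 0.08, adjusted p = 0.497) and *CDKN1A*, the gene of the cell cycle inhibitor p21, at 77.1 CPM in control, 54.2 with ibrutinib, 126 with ironomycin and 136 with both drugs (log2 fold change 1.02, standard error 0.13, adjusted p = 1.9e-04), which was not called without the ibrutinib library (0.77, adjusted p = 0.0093) or the library with both drugs (0.95, adjusted p = 1.2e-04), and stood at 0.996, just under the minimum, with no filter on low counts. Of 29 p53 targets 3 were called higher and 1 lower, *CD82* (-1.11, and -0.85 and -0.90 without the control or the ironomycin library). *MAP3K14*, a kinase of the alternative NF-κB route, was at 68.9 CPM in control, 67.1 with ibrutinib, 58.6 with ironomycin and 59.6 with both drugs (log2 fold change -0.20, standard error 0.08, adjusted p = 0.068). Of 30 NF-κB targets and TNF-family receptors 2 were called higher, *TNFRSF17* and *TNFRSF13C* (1.32), and 2 lower, *LTB* and *CD27*; *CD27* held 12 to 82 reads per library and was not called without the ironomycin library (-0.92, adjusted p = 0.057) or the ibrutinib library (-1.03, adjusted p = 0.18). Of 19 metallothioneins and zinc transporters 0 were called, with 4 higher and 3 lower at the adjusted p-value alone. Of 27 D cyclins, CDKs and genes of the RB axis 1 was called, *CDKN1A*, with 5 higher and 10 lower at the adjusted p-value alone. Histone genes were covered in part only, with 23 of 48 matched and 14 tested, and are not described further.

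The ironomycin effect of MAVER1 was then set against that of JVM2, at the same 250 nM, in 1 fit over all 12 libraries. JVM2 was grown with less serum than the other lines, and each line had its own ibrutinib dose, so these cannot be told apart from the line. The effect was higher in MAVER1 for 304 of the 14348 genes (2.12%) and lower for 204 (1.42%), of which 288 and 174 also held 20 or more reads in at least 2 JVM2 libraries. Against JEKO1, where dose and line cannot be told apart, it was higher for 129 genes (0.899%) and lower for 192 (1.34%). Of the 710 rises of MAVER1 222 had a higher effect than in JVM2 and 65 than in JEKO1, and of the 326 falls 122 and 64 a lower one. The median fitted log2 fold change of the 710 rises was 0.34 in JVM2 and 1.02 in JEKO1, and that of the 326 falls was -0.04 and -0.62; these members were chosen for their change in MAVER1, so a smaller value elsewhere is a description. The counts moved by over 1.5 times when a library was left out: against JVM2 they ran from 72 to 272 genes higher and from 56 to 120 lower, with the fewest of both when the JVM2 control library was left out (72 and 56). Against JEKO1 they ran from 63, without the MAVER1 ibrutinib library, to 185 higher and from 70, without the MAVER1 control or ironomycin library, to 382 lower, the last without the JEKO1 control library.

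Of the largest differences from JVM2, *INHBE* had log2 ratios of 0.84 and 1.97 in JVM2 (difference 3.28, standard error 0.39, adjusted p = 0.0019), *CHPF* 0.48 and 0.54 (difference 3.55, standard error 0.33, adjusted p = 6.5e-04) and *HID1* 0.38 and 0.63 (difference 4.30, standard error 0.54, adjusted p = 0.0023). For *HID1* the difference was not called without the JVM2 control library (4.15, adjusted p = 0.051). *OAS1* had ratios of the opposite sign in JVM2, with -0.55 and -0.51 (difference 3.38, standard error 0.15, adjusted p = 3.5e-05), and in JEKO1 had 0.78 and 0.33 (difference 2.30, standard error 0.16, adjusted p = 4.0e-04). *UNC5B* held only 4 or 5 reads per library in JVM2. The genes whose effect in MAVER1 lay furthest below that in JVM2 held few reads in JVM2: in control, ibrutinib, ironomycin and combination, *BCL6* held 0, 0, 1 and 3 reads, *SLC5A5* 1, 2, 8 and 20, *ASB13* 1, 1, 12 and 9, *LAMC3* 1, 1, 2 and 11 and *GNA15* 11, 8, 29 and 32. Of these, *BCL6*, *SLC5A5* and *GNA15* were called lower in MAVER1, whereas *ASB13* (-0.49) and *LAMC3* (-0.57) were not and had more reads with than without ironomycin in JVM2. Their fitted differences rest on few reads.

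Among the UPR genes, *ERN1* had log2 ratios of 0.55 and 1.17 in JVM2 (difference 2.02, standard error 0.33, adjusted p = 0.0073) and 2.62 and 3.39 in JEKO1 (difference -0.13, standard error 0.33, adjusted p = 0.85). The difference from JVM2 was not called when the JVM2 control library or the JVM2 ironomycin library was left out (1.70 in both cases, adjusted p = 0.10 and 0.071). *XBP1*, with 0.17 and 0.20 in MAVER1, had 1.47 and 1.596 in JEKO1 (difference -1.33, standard error 0.10, adjusted p = 7.4e-04), and *ATF3*, with 0.58 and 0.56 in MAVER1, had 1.96 and 2.32 (difference -1.58, standard error 0.15, adjusted p = 0.0022). Both UPR factors missed the fold minimum in MAVER1 at 250 nM and were above it in both pairs of JEKO1 at 50 nM. The lists' medians in MAVER1, JVM2 and JEKO1 were 0.66, 0.29 and 1.09 for the UPR sensors and factors, 0.56, 0.19 and 1.004 for the ER chaperones, 0.62, 0.43 and 0.80 for the ATF4 and CHOP targets, and -0.49, -0.10 and -0.52 for the respiratory chain, beside medians over all tested genes of 0.01, 0.01 and 0.02.

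*CD22* fell in MAVER1 and had 0.10 and 0.21 in JVM2 (difference -1.49, standard error 0.28, adjusted p = 0.012), although the difference was not called when any single JVM2 library was left out, or either of the MAVER1 control and ironomycin libraries (-1.55 to -1.13, adjusted p from 0.062 to 0.11). *ABCA1* differed from JVM2 (difference -1.70, standard error 0.42, adjusted p = 0.029), where it held 48, 26, 20 and 39 reads in the same order of treatments, but not when a library with ibrutinib, of either line, was left out, while *ABCG1* had -3.06 and -3.05 in JVM2 and -1.57 and -2.57 in JEKO1, with no called difference. *TFRC* had 1.03 and 0.96 in JVM2 and 0.14 and 0.05 in JEKO1, and neither differed from MAVER1 by a call (-0.23 and 0.67). *PTPN6*, with -0.42 and -0.30 in JVM2 and -1.72 and -2.41 in JEKO1, was likewise not called different. *CCND1* had -0.53 and -0.46 in JVM2 and -0.44 and -0.67 in JEKO1. Its differences of 0.58 from JVM2 (adjusted p = 0.026) and 0.64 from JEKO1 (adjusted p = 0.028) passed the adjusted p-value and missed only the fold minimum. A missed threshold does not show that the lines act alike.

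**Figure D5:**
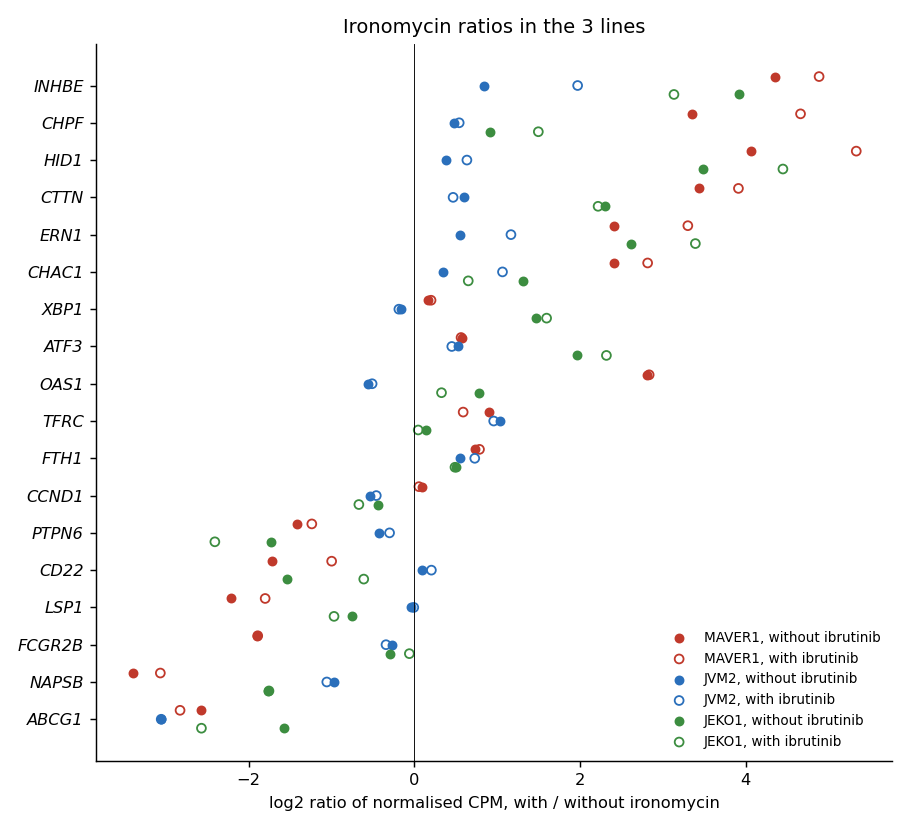
Log2 ratios of normalised CPM with against without ironomycin (x axis) for 18 named genes in MAVER1 (250 nM), JVM2 (250 nM) and JEKO1 (50 nM), filled for the pair without ibrutinib and open for the pair with it. *INHBE*, *CHPF* and *HID1* lie far to the right in MAVER1 and near 0 to 2 in JVM2, whereas *ABCG1* lies at -1.57 or below in all 3 lines.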

How the data were processed

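PolyA RNA of MAVER1, JVM2 and JEKO1 cells was sequenced with paired ends, with 1 library per line and treatment. The authors deposited whole-number read counts per Ensembl gene, not normalised; per the labels' processing notes STAR, DESeq2 and GRCh37 were used, without a stated role, and the counter and annotation are not given in the sources used here. Strand was not stated, so a gene and an antisense partner cannot be told apart. All 12 columns were used (0 left out), and 39699 of 63677 genes had a symbol. MAVER1 depth was 38081238 to 38630809 reads.

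The 4 MAVER1 libraries were fitted with edgeR 4.0.16 (R 4.3.3; quasi-likelihood test, TMM scaling, Benjamini-Hochberg adjustment) with terms for ibrutinib and ironomycin, leaving 1 residual degree of freedom. The ibrutinib term pairs the libraries by treatment, as the labels give it. Differences between lines came from 1 fit over 12 libraries (3 residual degrees of freedom), and a difference was called where it was at least 1 in size with adjusted p below 0.05. CPM values were TMM-normalised, and pair ratios used a prior count of 2. P-values measure only the spread between these libraries, moderated over all genes, since no separate cultures are stated. DESeq2 1.42.0, other scalings and filters, no ibrutinib term and leaving out each library were tried as alternatives, and the fits were tested on simulated data. In MAVER1 the fits with a library left out held no ibrutinib term and no condition on the pairs. They compared 2 libraries with 1, unpaired. For the differences between lines the ibrutinib terms were kept.

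The genes described and the 35 lists were chosen with earlier results of these data known. The text names the 12 largest rises and falls with a mean of at least 5 CPM (ranked by the smaller pair ratio), up to 6 called members of each list, 30 key genes, and the 5 largest differences from JVM2 in each direction. Promoters were RefSeq sequences of GRCh38.p14, searched for textbook consensus letters entered by hand, and no coordinates of the count table were used. Of the genes this rule picks, 2 are not reported here.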

Additional observations from a re-analysis of the deposited data

Results flagged for a closer look

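The ironomycin effect differed between the lines by the interaction term for 304 genes higher and 204 lower in MAVER1 than in JVM2, and for 129 higher and 192 lower than in JEKO1, where the dose also differed.

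Of the named genes, the MAVER1 effect lay above that of JVM2 for *UNC5B* (4.54), *HID1* (4.30), *CHPF* (3.55), *OAS1* (3.38), *INHBE* (3.28), *ERN1* (2.02) and *SLC7A11* (1.31), as differences on the log2 scale. It lay below for *BCL6* (-5.53), *SLC5A5* (-4.39), *ASB13* (-3.69), *LAMC3* (-3.09), *GNA15* (-2.95), *ABCA1* (-1.70) and *CD22* (-1.49). In JVM2 *BCL6* held 0 to 3 reads per library, *ASB13* 1 to 12, *LAMC3* 1 to 11, *SLC5A5* 1 to 20 and *UNC5B* 4 or 5. The differences of *INHBE*, *CHPF* and *OAS1* were called under every alternative tried, and each of the others lost the call under at least 1. *BCL6* lost it under 10, *SLC7A11* and *LAMC3* under 9 each, *UNC5B* under 7, and *ABCA1* and *CD22* under 6 each. *SLC5A5* and *ASB13* lost it under 3 each, *ERN1* under 2, and *HID1* and *GNA15* under 1 each. The difference of *SLC7A11* was not called when any single library of JVM2 or MAVER1 was left out.

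Against JEKO1 the effect was higher for *CHPF* (2.86) and *OAS1* (2.30) and lower for *ATF3* (-1.58), *GNA15* (-1.43), *XBP1* (-1.33), *LAMC3* (-1.14), *BCL6* (-1.13) and *ABCA1* (-1.06). Of these, *GNA15* and *BCL6* lost the call under 8 alternatives each, *ABCA1* under 6 and *LAMC3* under 4. By DESeq2 the adjusted p was 0.36 for *ABCA1*, 0.098 for *GNA15* and 0.053 for *BCL6*. Groups held 2 libraries each, too few for a test of a single library far from the others.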

How the results depend on the processing

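In MAVER1 the counts of 710 rises and 326 falls stayed within 1.5 times with library totals (799 and 285), DESeq2 size factors (701 and 338), no filter on low counts (646 and 351 of 28047 genes), edgeR's own filter (879 and 408 of 15802), all 12 libraries (715 and 312) and no replicate block, that is, no ibrutinib term (689 and 297). DESeq2's Wald test called 464 rises and 227 falls, and with no fold minimum 3351 rises and 3314 falls were called, counting only genes whose pairs both moved that way (3352 and 3314 without that condition). With each library left out in turn the rises ran from 474 to 944 and the falls from 200 to 429. For the difference from JVM2, no replicate block gave 149 higher and 86 lower, and leaving out 1 library 72 to 272 and 56 to 120. For that from JEKO1, no replicate block gave 36 and 42, and leaving out 1 library 63 to 185 and 70 to 382. The cause was not tested. No called change or difference of a named gene changed sign. Values that were not called did, in MAVER1 those of *BTK*, *HMOX1* and *MKI67* with a library left out, and so did list medians near 0: those of the aminoacyl-tRNA synthetases, iron uptake, BCR signalosome, BCL2 family, B-cell factors and interferon-stimulated genes under another scaling, those of p53 targets, immediate early genes and D cyclins under other alternatives, and the histone median from 0.26 to -0.21 with no filter. Of the 145 named genes 24 lost their call without the library with both drugs, 16 without control, 11 without ibrutinib and 7 without ironomycin. With 1 library per treatment and 1 residual degree of freedom, the spread rests on how far 2 pairs depart from each other, moderated over all genes, and no difference between the pairs could be tested. Library totals moved the median of all genes by 0.061 on the log2 scale. With no filter 5 named calls were lost, and 3 by DESeq2.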
